A study of Mus musculus with 20 samples.

Results

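8 lymphomas that carry Myc were compared with 8 lymphomas that carry an empty vector, which together make up 16 of the 20 samples of the study. Both groups come from the VavPBcl2 mouse model on the C57BL/6 background, in which a Bcl2 transgene under the Vav promoter is expressed in blood cells, so every lymphoma here carries the Bcl2 transgene (genotypes VavPBcl2/Myc and VavPBcl2/vector). The labels do not say how Myc or the vector was brought into the cells. Cells were enriched from the tumours with magnetic beads for B220, a form of CD45 carried by B cells and plasmacytoid dendritic cells, and were not cultured. The Myc samples carry the title prefixes s_AO57 (4 samples) and s_AO58 (4), and the vector samples s_AO55 (3), s_AO56 (3) and s_E205 (2). All 37620 genes of the count table were considered, and the 17824 with enough counts were tested. The remaining 4 samples, B220+ cells of normal spleen, entered the fit and are cited for level only. Nothing in the labels says that the samples of a group came from separate animals or clones, and a p-value here speaks only of the variation among the samples sequenced.

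Myc is a transcription factor that binds DNA together with Max, at the sequence CACGTG (the E-box) and its variants. In normal B cells it is switched on when a cell is stimulated, and it raises the output of genes that build ribosomes, import nutrients and drive division. Bcl2 blocks the cell death that excess Myc would otherwise provoke. VavPBcl2 lymphomas arise from germinal centre B cells, which mutate their antibody genes under the control of Bcl6, a repressor of transcription.

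Each lymphoma sample held 28.7 to 56.3 M (mega) gene counts. By the run numbers in the labels, vector replicates 1 to 6 came from later sequencing runs, while vector replicates 7 and 8 (the s_E205 samples) and all 8 Myc samples came from earlier ones. Between the vector samples, run and title prefix cannot be told apart. Gene lists are therefore given with their counts against the 2 s_E205 samples alone, and many of the genes with their value there. The vector samples also differed among themselves: 1672 of 17202 genes were higher (9.72%) and 1049 lower (6.1%) in the 2 earlier-run than in the 6 later-run samples (edgeR's quasi-likelihood test with Benjamini-Hochberg adjustment, as for every adjusted p below). Between Myc samples of the prefixes s_AO58 and s_AO57, 0 of 16304 genes were called by the same test and 1565 had an unadjusted p under 0.05. Myc replicate 5 stood apart, with 22.05% of its gene counts in cytosolic ribosomal protein genes against 6.16 to 8.34% in the other 7 Myc samples.

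Myc (ENSMUSG00000022346, chromosome 15), the gene that was added, checks the labels, although the counts do not separate an added copy from the mouse's own gene. It lay between 48.4 and 226 CPM (counts scaled to a common library size) in the vector lymphomas, with a median of 101, and between 313 and 1646 CPM in the Myc lymphomas, with a median of 909. The groups did not overlap. The log2 fold change was 3.05 ± 0.35 SE (8.29-fold, adjusted p = 1.2e-06) and 3.29 against the s_E205 samples (adjusted p = 0.008).

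Nearly as many genes were called as not. At an adjusted p under 0.05, 4747 genes were higher in Myc lymphomas (26.6% of those tested) and 3907 were lower (21.9%). Changes of at least 2-fold made up 3169 of the former (17.8% of genes tested) and 1854 of the latter (10.4%). The tails were uneven, with 143 genes higher and 76 lower by at least 4 on the log2 scale. All 8 Myc samples lay above all 8 vector samples for 913 genes (5.12%) and below them for 1138 (6.38%). Against the 2 s_E205 samples, 549 genes were called higher (2.97% of 18505) and 814 lower (4.4%). Those 2 counts rest on few controls: without vector replicate 7 they were 28 and 270, and without vector replicate 8 they were 62 and 251. Adding a term for the later sequencing runs, the counts were 1640 (9.2%) and 1742 (9.77%).

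The direction of change differed with the level of the gene. Among the 2154 genes that averaged at least 100 CPM, 463 rose (21.5%) and 843 fell (39.1%). Among the 3894 genes under 1 CPM, 989 rose (25.4%) and 398 fell (10.2%). Of the 4224 genes at 1 to 10 CPM, 1335 rose (31.6%) and 720 fell (17.1%), and of the 7552 at 10 to 100 CPM, 1960 rose and 1946 fell. Against the s_E205 samples, falls outnumbered rises in every class. From the lowest class to the highest, 48, 181, 278 and 42 genes rose there and 82, 252, 336 and 133 fell (2.97% and 4.4% of all genes).

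**Figure D1:**
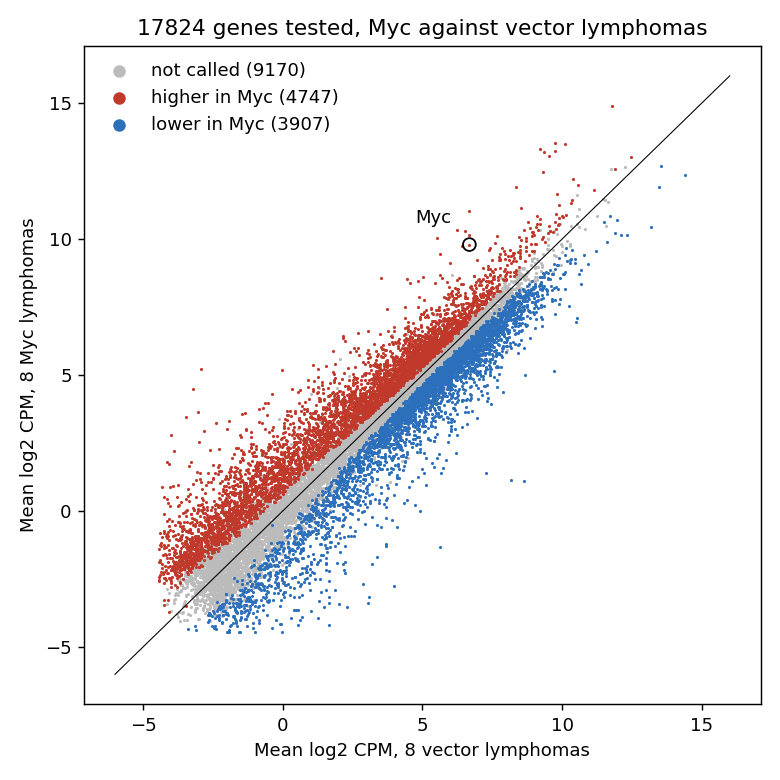
Mean log2 CPM over 8 vector lymphomas (x axis) against mean log2 CPM over 8 Myc lymphomas (y axis), 1 point per gene tested; red points were called higher in Myc lymphomas, blue points lower and grey points were not called. Red points outnumber blue ones at low levels and blue points outnumber red ones at the highest levels, and the Myc gene lies above the diagonal.

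The direction also differed with transcript length, and the same gradient lay between the earlier-run and later-run vector samples. The part of run and of single libraries in it was not tested. Of 637 protein-coding genes whose longest annotated transcript is under 1000 bases, 55.3% rose and 3.92% fell (median log2 fold change 1.07). Of 760 genes at 8000 bases or more, 11.2% rose and 34.1% fell (median -0.41). Against the s_E205 samples the medians of these classes were 0.67 and -0.06. Between earlier-run and later-run vector samples they were 0.53 and -0.44, in the same order. In each sample, the median level of the short class minus that of the long class, relative to the vector mean, ran from -0.64 to 0.50 on the log2 scale in vector replicates 1 to 6. It was 1.31 and 0.29 in vector replicates 7 and 8, and 0.61 to 4.53 in the Myc lymphomas. Myc replicate 5 was the highest at 4.53, while the next Myc sample lay at 1.58, and vector replicate 7 lay within the range of the Myc samples.

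A fit that removes each sample's trend over transcript length, chosen after seeing the data, was therefore set beside the first. It called 4667 genes higher (26.2%) and 4202 lower (23.6%). Of the genes first called, 3734 of 4747 stayed higher and 3295 of 3907 stayed lower. Below, this fit is called length-corrected, and its counts are given for lists in which the number of genes that rose or fell moved by at least 2.

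**Figure D2:**
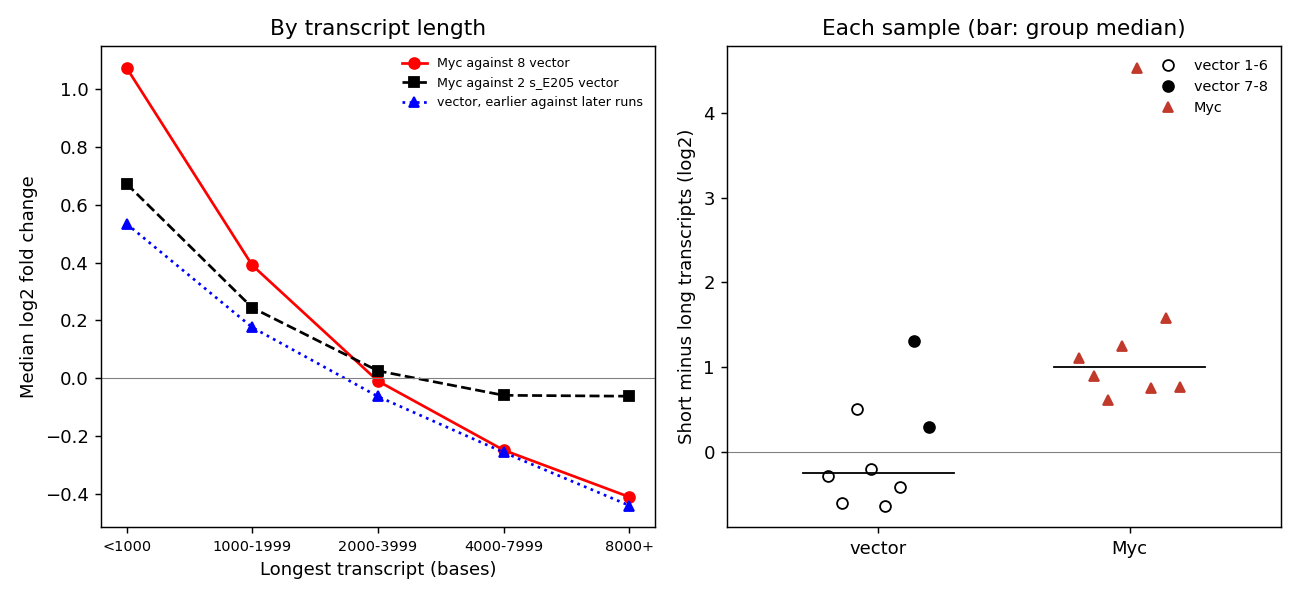
Left, median log2 fold change by class of longest transcript (x axis, bases) for Myc against all 8 vector samples, Myc against the 2 s_E205 samples, and earlier-run against later-run vector samples. Right, short minus long transcripts (log2) for each sample: the lines fall from left to right, and Myc replicate 5 lies far above the other samples at 4.53.

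The genes with the smallest p among those that rose had narrow groups far apart. Slc19a1, the carrier that brings reduced folate into the cell, lay between 10.5 and 15.2 CPM (median 12.3) in vector lymphomas and between 48.7 and 69.6 CPM (median 61.9) in Myc lymphomas, while normal B cells held 12.3 to 17.1 CPM. It rose 4.89-fold, which on the log2 scale is 2.29 ± 0.12 (SE, n = 8 and 8, edgeR, adjusted p = 1.2e-10), with 2.46 against the s_E205 samples (adjusted p = 0.00013). Shmt1, the cytosolic enzyme that moves a carbon unit from serine onto folate, went from 9.03 to 14.5 CPM (median 12) up to 33.2 to 66.3 CPM (median 50.9). Its log2 fold change was 2.13 ± 0.16 (adjusted p = 7.4e-09; 1.87 against s_E205). Dctd, which deaminates dCMP on the way to dTMP, was at 0.743 to 3.15 CPM (median 2.41) against 17.3 to 29.2 CPM (median 20.5) and rose by 3.25 ± 0.23 (adjusted p = 5e-09; 2.84 against s_E205). These 3 genes supply or use one-carbon units and pyrimidines, and their groups do not overlap, as the rule for naming them required.

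Other genes of this kind belong to signalling, chromatin and redox. Fgfr1, a receptor for fibroblast growth factors, rose 20.2-fold from 1.15 to 3.37 CPM (median 2.24) to 20.9 to 76.2 CPM (median 45.2), a log2 fold change of 4.34 ± 0.32 (adjusted p = 7.3e-09; 4.38 and 0.0012 against s_E205). Smyd2, a lysine methyltransferase, rose 7.52-fold, from a median of 8.12 CPM to 59.8 CPM (range 44.1 to 97.7). Gsto1, a glutathione transferase of the omega class, rose 6.27-fold (medians 16.4 and 98.4 CPM). Tfpi, an inhibitor of the tissue factor pathway of clotting, rose 9.53-fold from a median of 1.24 CPM to 14 CPM, and normal B cells lay in between at 4.97 to 6.13 CPM. Padi3, which converts arginine in proteins to citrulline, rose 11.6-fold but stayed low (medians 0.458 and 5.28 CPM). In all of them every Myc sample lay above every vector sample, as the rule for naming them required.

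The genes that rose furthest were almost silent in vector lymphomas. Cd163l1, a scavenger receptor, lay between 0 and 0.381 CPM in vector lymphomas, between 7.22 and 34.8 CPM (median 11.2) in Myc lymphomas and between 2.55 and 5.56 CPM in normal B cells. It rose by 7.04 ± 0.58 on the log2 scale (adjusted p = 2.2e-08). Epha3, an ephrin receptor, went from a median of 0.146 CPM to 13 CPM with a wide spread among Myc samples (0.731 to 68.9 CPM). Car12, a carbonic anhydrase of the cell surface, went from 0.528 CPM to 17.9 CPM. Esrp1, a splicing factor of epithelial cells, and Lingo3 had 0 counts in both s_E205 samples and 6 and 14 counts over all 8 vector samples. In Myc lymphomas they lay between 0.471 and 13.2 CPM (median 3.14) and between 3.94 and 16.3 CPM (median 5.91). Kcnc4, a potassium channel, held 0.645 to 8.68 CPM (median 5.30) in Myc lymphomas and at most 0.106 CPM in vector lymphomas. Trnp1, Arhgdig and Ankrd36 rose by 6.36, 4.92 and 5.41 on the log2 scale. Stfa1, Klk1b27 and Ear1 (6.58, 5.45 and 4.90) belong to families of near-identical genes, so the split of reads among family members is uncertain.

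**Figure D3:**
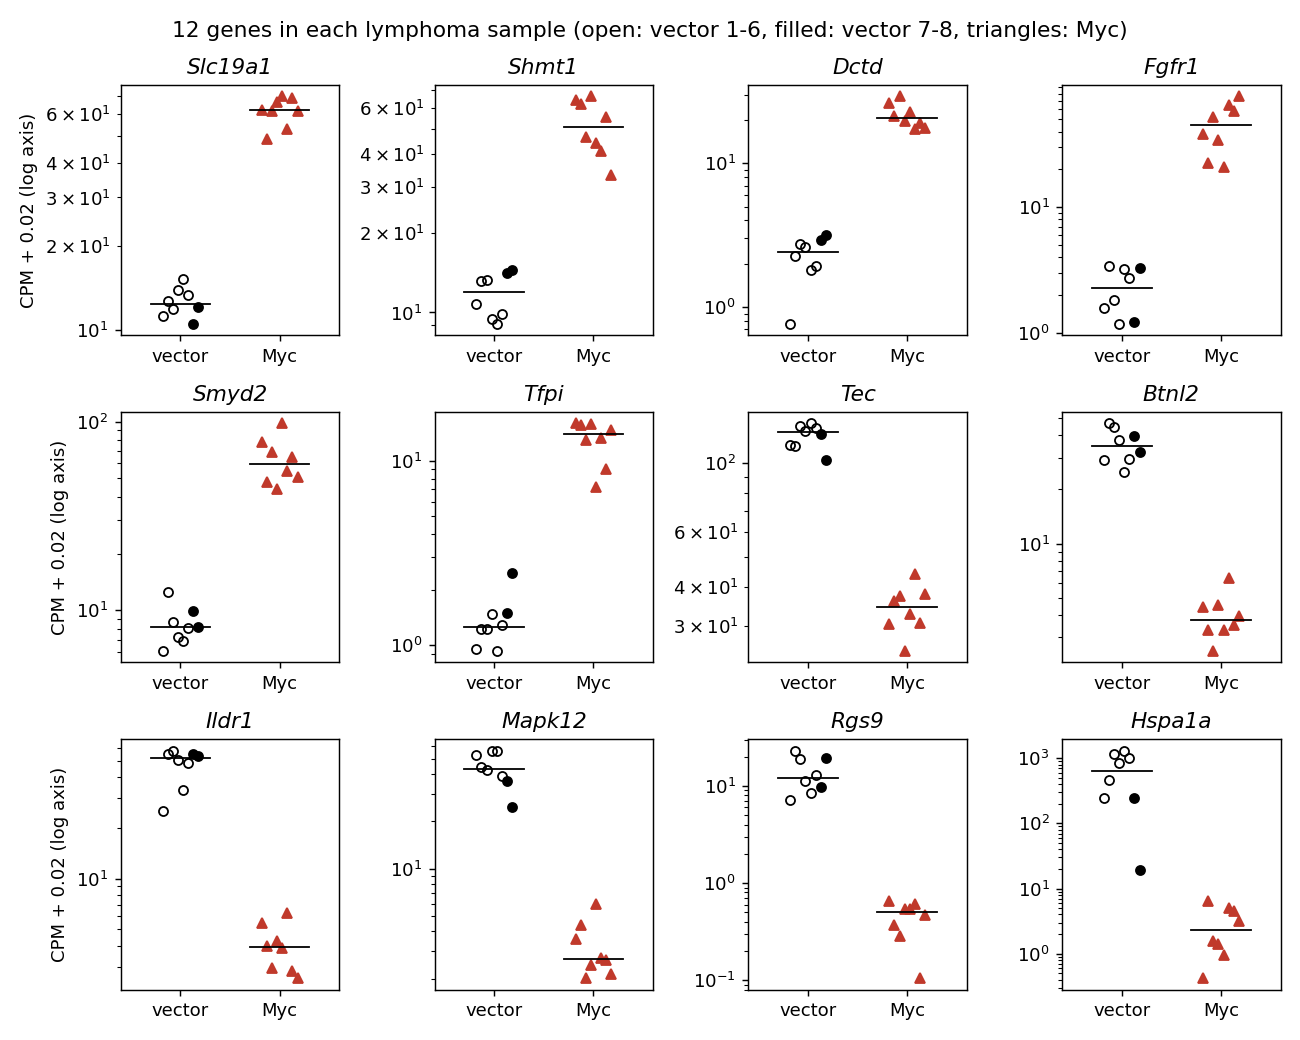
CPM (log axis, with 0.02 added so that 0 can be drawn) of 12 genes in each sample: open circles are vector replicates 1 to 6, filled circles vector replicates 7 and 8, and triangles the 8 Myc lymphomas; the horizontal bar is the group median. For each of these genes the triangles lie wholly above or wholly below the circles.

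The genes with the smallest p among those that fell include B cell genes. Tec, a kinase of the same family as Btk, fell from 102 to 134 CPM (median 125) to 24.9 to 44 CPM (median 34.4), a log2 fold change of -1.83 ± 0.12 (adjusted p = 2e-09; -1.72 against s_E205). Btnl2, a butyrophilin that restrains T cells, had medians of 35 and 3.73 CPM (-3.16 ± 0.20, adjusted p = 1.1e-09), and normal B cells held 9.44 to 13.9 CPM. Ildr1, a membrane protein of cell junctions, fell 11.8-fold and Mapk12, the gamma form of p38 MAP kinase, fell 13.7-fold. Ildr1 lay between 2.54 and 6.25 CPM (median 3.91) in Myc lymphomas and between 4.33 and 7.29 CPM in normal B cells, and Mapk12 between 1.99 and 5.94 CPM (median 2.64) and between 3.39 and 6.50 CPM, so for both the normal samples overlapped the Myc samples and not the vector samples. H2-Eb2, an MHC class II beta chain, fell 5.03-fold, Fmnl3, a formin that elongates actin filaments, 5.34-fold and Trim7, a ubiquitin ligase, 7.51-fold. Rgs9, a brake on G proteins, fell 32.6-fold from a median of 12.1 CPM to 0.481 CPM.

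The genes that fell furthest were led by heat shock genes. Hspa1a, an inducible Hsp70 chaperone, lay between 19.2 and 1312 CPM (median 646) in vector lymphomas and between 0.399 and 6.39 CPM (median 2.32) in Myc lymphomas, a log2 fold change of -7.82 ± 0.77 (adjusted p = 1.6e-07). The s_E205 samples held 245 and 19.2 CPM, and normal B cells 15.7 to 25.3 CPM, so vector replicate 8 lay within the range of normal cells and the other vector samples above it. Hspa1b, whose sequence is nearly identical, and Hspa1l fell by 7.61 and 7.43. Nuggc, a nuclear GTPase of germinal centre B cells, fell from a median of 156 CPM to 4.24 CPM (-5.08 ± 0.59, -4.65 against s_E205). Emp2, a tetraspan membrane protein, went from 9.44 CPM to 0.0413 CPM and Cobl, an actin nucleator, from 14.4 CPM to 0.131 CPM. Trpm5, Thsd7a, Slc4a3, Rflna and Scn8a fell by 5.03 to 6.66 on the log2 scale, to medians of at most 0.249 CPM in Myc lymphomas. Of these last 5 genes, Trpm5 alone exceeded 1 CPM in normal B cells (1.65 to 2.99 CPM).

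The 39 genes of the last 4 groups (20 that rose and 19 that fell) were chosen among genes called against all vector samples and against s_E205 alone, with groups that do not overlap. Their calls under other settings are therefore given as a description only: all 39 kept their call in the length-corrected fit, with the run term, with s_AO57 or s_AO58 as the only Myc samples, with DESeq2's Wald test and with any single sample left out.

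The promoters of the genes named in the text were searched for CACGTG, which reads the same on both strands, and the 3 with the smallest p that hold it are shown, since they carry the best known Myc binding sequence. Sequences are those of RefSeq on GRCm38.p6, 250 bases before to 50 after the gene's start, in lower case with the motif in capitals.
Mapk12: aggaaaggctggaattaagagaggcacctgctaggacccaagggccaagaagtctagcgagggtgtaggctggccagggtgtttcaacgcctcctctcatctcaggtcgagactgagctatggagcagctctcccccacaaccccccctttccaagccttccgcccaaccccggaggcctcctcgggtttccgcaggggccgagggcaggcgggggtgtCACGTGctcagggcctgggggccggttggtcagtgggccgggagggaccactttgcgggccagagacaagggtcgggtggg
Tfpi: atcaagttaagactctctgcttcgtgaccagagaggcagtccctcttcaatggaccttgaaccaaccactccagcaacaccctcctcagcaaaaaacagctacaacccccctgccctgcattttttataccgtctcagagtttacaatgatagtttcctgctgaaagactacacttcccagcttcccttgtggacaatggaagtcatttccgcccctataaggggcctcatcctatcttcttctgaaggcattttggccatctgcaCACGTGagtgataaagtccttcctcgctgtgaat
Pus7: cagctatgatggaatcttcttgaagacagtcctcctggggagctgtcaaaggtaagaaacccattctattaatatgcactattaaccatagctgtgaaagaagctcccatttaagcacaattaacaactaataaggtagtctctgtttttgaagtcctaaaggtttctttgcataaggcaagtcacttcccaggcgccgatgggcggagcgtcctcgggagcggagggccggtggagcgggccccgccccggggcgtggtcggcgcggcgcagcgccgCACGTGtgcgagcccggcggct
The windows are chr15:89140654-89140953 (Mapk12), chr2:84476710-84477009 (Tfpi) and chr5:23783662-23783961 (Pus7), all on the minus strand. The motif begins 31 bases before the start of Mapk12, which fell, and 16 and 28 bases after those of Tfpi and Pus7, which rose. Tfpi and Pus7 have 2 windows each in the reference, of which 1 is shown.

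A larger share of promoters of genes that rose than of genes that fell held the motif, a difference given without a test. Windows were at hand for 11207 of the 17824 genes tested, among them 2724 of the 4747 genes higher and 2874 of the 3907 lower. The motif was found in 11% of 3351 promoters of genes higher in Myc lymphomas and in 9.39% of 3813 of genes lower. It was in 8.76% of 7088 of genes not called and in 9.45% of 14252 of all genes tested. Of all 32851 windows of the table, which include genes not tested, 7.15% held it. Among genes called also against s_E205 it was in 12.6% of 538 promoters of genes higher and in 7.18% of 710 of genes lower. Among genes that changed by at least 2-fold it was in 9.64% and 8.61%, so the share was lower, not higher, among the larger rises. Lists hold few promoters, so their shares vary widely, and those given here are among the highest and lowest. The motif was in 10 of 31 promoters of long-described Myc targets and in 7 of 25 of tRNA processing genes. It was in 0 of 16 of genes for proteins that guide the modification of ribosomal RNA. Most genes of these lists rose (described below). In the RNA polymerase III list, of which 3 genes rose and 3 fell, 5 of 15 promoters held the motif. The motif search describes letters in a window, not binding.

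Most genes known as Myc targets from other work rose, and none fell. Of 32 tested, 23 rose and 0 fell (71.9%, against 26.6% of all genes), with a median log2 fold change of 0.66 against 0.08 for all genes. Against s_E205 6 rose (against 2.97% of all genes) and 0 fell (median 0.85), and 25 rose and 1 fell in the length-corrected fit. In 12 of the 32, the groups did not overlap and Myc was the higher (5.12% of all genes). Srm, which makes spermidine, lay between 26.2 and 45.5 CPM (median 36) in vector lymphomas and between 121 and 408 CPM (median 148) in Myc lymphomas. Rcc1, the exchange factor that loads Ran with GTP on chromatin, went from 29.8 to 53.9 CPM (median 37.2) up to 68.4 to 107 CPM (median 87.3, log2 fold change 1.14 ± 0.13, adjusted p = 9.1e-07; 1.44 and 0.0027 against s_E205). Neither gene's groups overlapped. Nme1, a nucleoside diphosphate kinase, rose by 1.82 and Cdk4, a kinase of the G1 phase, by 1.25. Ptma had -0.24 and Ccnd2 0.19, and neither was called.

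Most genes that modify and process RNA rose. Of 17 genes for the proteins and assembly factors of small nucleolar ribonucleoproteins, which guide the modification of ribosomal RNA, 14 rose and 1 fell (median 0.69; 5 and 0 against s_E205, median 0.91; 12 and 2 length-corrected). Nhp2, a core protein of the H/ACA class, rose by 2.15 ± 0.28 (25.3 to 53.1 CPM against 93.6 to 413 CPM), and fibrillarin (Fbl), the methyltransferase of the C/D class, by 0.96 ± 0.16. Rpap3, a cochaperone of their assembly, fell by 0.56. Of 26 genes of tRNA processing and modification, 17 rose and 0 fell, and 9 rose against s_E205 (median 0.81), the most of any of the 52 lists there. Pus7, a pseudouridine synthase, held 15.7 to 24.1 CPM (median 20.6) in vector lymphomas and 40.4 to 83.7 CPM (median 57.3) in Myc lymphomas (1.53 ± 0.15, adjusted p = 1.3e-07; 1.85 and 0.0021 against s_E205). The groups did not overlap for either Nhp2 or Pus7, nor for 10 of the 26 tRNA genes, with Myc the higher (5.12% of all genes). Pop1, the scaffold of RNase P, rose by 1.33, Trmt61a, which methylates adenosine in tRNA, by 1.04 and Nsun2, which methylates cytosine in tRNA, by 0.92.

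Fewer genes of the polymerases that make these RNAs were called. Of 14 genes of RNA polymerase I and its factors, 6 rose and 2 fell (2 and 0 against s_E205): Polr1e and Polr1b rose by 0.97 and 1.01, while Ubtf, the factor that opens ribosomal DNA, and Ttf1, which ends its transcripts, fell by 0.76 and 1.1. Against s_E205 the last 2 had -0.03 and -0.43 (adjusted p = 0.96 and 0.48). Of 20 genes of RNA polymerase III and its factors, 3 rose and 3 fell (15% each, against 26.6% and 21.9% of all genes; 1 and 0 against s_E205, 6 and 4 length-corrected). Gtf3a, which recruits the enzyme to 5S RNA genes, rose by 1.49 ± 0.24 (0.12 as adjusted p against s_E205), and Maf1, a repressor of the enzyme, fell by 0.45. Of 8 host genes of small nucleolar RNAs 6 rose, but 0 of 8 were called against s_E205 (3 at an unadjusted p under 0.05, median 0.95), Snhg3 among them (2.49, and 1.36 with adjusted p = 0.1).

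About equal shares of the nuclear transport genes rose and were not called, and most genes of protein folding complexes rose. Of 34 genes of the nuclear pore and its carriers, 17 rose and 1 fell, and 2 rose against s_E205. The carriers Kpna2, Ipo5 and Ipo4 rose by 1.29, 0.75 and 0.59, while Ranbp2, a large protein on the cytoplasmic face of the pore, had -0.31 and was not called. In the length-corrected fit 24 rose and 0 fell. Of 18 genes of the chaperonin CCT, of prefoldin and of the mitochondrial chaperonin, 13 rose and 0 fell, with Cct5 at 252 to 372 CPM (median 276) against 444 to 838 CPM (median 558, log2 fold change 0.98 ± 0.15). Against s_E205 0 of 18 were called (8 rose at an unadjusted p under 0.05), with a median of 0.66, and the length-corrected fit called 9 higher and 1 lower.

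Most methyl donor and arginine methylation genes rose. Of 14 genes, 9 rose and 1 fell (3 and 1 against s_E205). Prmt5, the main enzyme of symmetric arginine dimethylation, and its partner Wdr77 rose by 0.97 ± 0.14 and 0.71 ± 0.13. Carm1 rose by 0.89 and Mtap, which salvages methionine from polyamine synthesis, by 1.22 (0.93 and 0.028 against s_E205). Prmt2, a related methyltransferase, was the member that fell, from 10.7 to 20.7 CPM (median 16.2) down to 3.77 to 6.73 CPM (median 5.04, log2 fold change -1.69 ± 0.16, adjusted p = 1.5e-07; -1.66 and 0.0027 against s_E205). Its groups did not overlap.

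Polyamine genes moved on both sides of the pathway. Of 14 genes, 6 rose and 1 fell (1 and 1 against s_E205, 5 and 3 length-corrected). Besides Srm, Amd1, which supplies the aminopropyl group, rose by 1.08 ± 0.19, and Eif5a, the translation factor that carries the polyamine-derived hypusine, rose from 298 to 427 CPM (median 345) to 586 to 1329 CPM (median 832). Sat1, which acetylates polyamines for breakdown and export, fell from 142 to 305 CPM (median 196) to 69.7 to 121 CPM (median 104, log2 fold change -1.04 ± 0.15, adjusted p = 1.5e-05; -1.47 and 0.00076 against s_E205). The groups did not overlap for Eif5a or Sat1. Odc1, the first enzyme of the pathway, had 0.27 ± 0.23 and was not called (adjusted p = 0.35).

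Most redox and NADPH genes rose against all vector samples. Of 21 thioredoxin, glutathione and antioxidant genes, 16 rose and 0 fell (76.2%, median 0.96; 14 and 0 length-corrected), the peroxiredoxins Prdx6 and Prdx2 among them (1.51 ± 0.21 and 2.03 ± 0.37). Against s_E205 1 was called, Gclm, a subunit of the enzyme that starts glutathione synthesis (1.43, adjusted p = 0.036), while the median was 0.85. Of 12 genes of the pentose phosphate pathway and NADPH supply, 7 rose and 0 fell, with 1 called against s_E205: Me2, the mitochondrial malic enzyme (1.09 ± 0.13; 0.91 and 0.026). G6pdx, the first enzyme of the pathway, rose by 1.05 ± 0.24 but had 0.37 against s_E205 (adjusted p = 0.61).

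Against all vector samples, fatty acid genes were called in shares near those of all genes. Of 20 genes, 7 rose and 4 fell (35% and 20%, against 26.6% and 21.9% of all genes), and without Myc replicate 5 there were 11 that rose. Against s_E205 4 rose and 0 fell (2.97% and 4.4% of all genes). In the length-corrected fit 11 rose and 4 fell (26.2% and 23.6% of all genes). Fads3, Fads2 and Fads1, of the Fads family of desaturases, rose by 2.75 ± 0.33, 2.30 ± 0.35 and 1.08 ± 0.18. All 3 were called against s_E205 (3.61, 3.30 and 1.52). Elovl6, an elongase, rose by 1.50. The stearoyl desaturases moved apart against all vector samples: Scd1 fell from 370 to 643 CPM (median 488) to 91.6 to 324 CPM (median 150.5, log2 fold change -1.64 ± 0.24), and Scd2 rose by 1.01 ± 0.20. Against s_E205 neither was called (-1.32 and 1.34, adjusted p = 0.056 and 0.068). Srebf1 and Srebf2, regulators of lipid synthesis, fell by 0.69 and 1.16 but had -0.13 and -0.51 against s_E205 (adjusted p = 0.79 and 0.38). Fatty acid synthase (Fasn, 0.40) and Acaca (0.33) were not called.

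Iron genes rose beside erythroid markers. Of 21 genes of iron uptake, haem and iron-sulphur clusters, 13 rose and 0 fell (median 0.78; 4 rose against s_E205, median 0.89; 16 length-corrected). Tfrc, the transferrin receptor, rose from 64.1 to 255 CPM (median 163) to 303 to 1062 CPM (median 455, log2 fold change 1.76 ± 0.29; 2.34 and 0.018 against s_E205). Haem enzymes such as Urod (1.39) and Alad (1.05) are also highly expressed in red cell precursors. The summed level of 11 erythroid markers was 5971 to 10880 CPM in vector replicates 1 to 6, 2268 and 3120 CPM in the s_E205 samples, 3505 to 54080 CPM in Myc lymphomas and 142 to 1883 CPM in normal samples. Of these markers 5 rose, 2 against s_E205 and 2 in the length-corrected fit, and 9 of 11 were lower in earlier-run than in later-run vector samples. Without vector replicate 7, vector replicate 8 or Myc replicate 5, 3 erythroid markers rose. Their part in the iron result was not tested.

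B cell receptor signalling was the list of more than 20 genes with the highest share of members that fell. Of 27 genes, 22 fell and 0 rose (81.5%, against 21.9% of all genes), with a median of -1.0 (10 fell against s_E205, against 4.4% of all genes, median -0.89; 22 in the length-corrected fit). In bulk samples such as these, fewer B cells and less RNA of a gene per B cell cannot be told apart. The complement receptor Cr2 fell by 3.16 ± 0.30. Of the kinases and adaptors that carry the signal, Blk fell by 1.71, Syk by 1.80, Plcg2 by 1.36 and Bank1 by 2.02. Rasgrp3, which activates Ras below the receptor, fell from 136 to 223 CPM (median 174) to 2.58 to 35.5 CPM (median 18.2). For 14 of the 27, Rasgrp3 among them, the groups did not overlap and Myc was the lower (6.38% of all genes). The members differed in size: Vav1, Dapp1 and Btk fell by only 0.55, 0.60 and 0.82, and Cd79b (-0.56), Fyn (-0.33) and Vav3 (0.03) were not called.

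Receptors that restrain B cells also fell. Of 17 inhibitory receptors and phosphatases, 13 fell and 1 rose, and 8 fell against s_E205. Cd22 went from 1336 to 2066 CPM (median 1679) to 196 to 492 CPM (median 324), and Fcgr2b, the inhibitory receptor for IgG, fell by 0.95 ± 0.16 (-1.43 and 0.001 against s_E205). For 9 of the 17, Cd22 among them, there was no overlap and Myc was the lower (6.38% of all genes). Fcrl5 fell by 1.96 and Cd72 by 2.00. Ptpn6, the phosphatase SHP-1 that these receptors recruit, fell by 0.97 ± 0.17. Lair1, an inhibitory receptor that binds collagen, rose by 1.73 ± 0.27 (adjusted p = 0.11 against s_E205).

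Calcium and innate signalling were partly lower. Of 20 calcium and NFAT genes 12 fell and 1 rose, but 2 fell against s_E205 (Camk2d and Ppp3cc, -1.26 and -0.84), and the member that rose was Camk4 (1.42 ± 0.36). Of 21 Toll-like receptor and innate sensing genes 10 fell and 2 rose (6 and 1 against s_E205). Tlr1, Tlr3, Tlr4, Tlr6 and Tlr9 fell by 1.02 to 1.89, as did Cd180, a receptor related to Tlr4 (-1.71 ± 0.21). Tlr7 (0.24) and Tlr2 (-0.19) were not called, nor was Myd88, the adaptor shared by most of them. Cgas, the sensor of DNA in the cytosol, rose from 2.82 to 6.04 CPM (median 4.16) to 7.21 to 15.1 CPM (median 10.5, log2 fold change 1.36 ± 0.19; 1.30 and 0.028 against s_E205), without overlap.

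Most receptors and regulators of B cell position fell. Of 29 G protein-coupled receptors and RGS proteins, 20 fell and 2 rose (10 and 0 against s_E205, median -0.73). S1pr2, which confines germinal centre B cells, fell from 48.6 to 211 CPM (median 127) to 3.92 to 44.1 CPM (median 9.69, log2 fold change -3.27 ± 0.43; -3.55 and 0.0026 against s_E205), and its G protein Gna13 by 1.01 ± 0.18 (adjusted p = 0.18 against s_E205). Cxcr5, the receptor that leads B cells into follicles, fell by 1.63 ± 0.25 and Ccr6 by 1.88 ± 0.27. Rgs13, Rgs2, Rgs1 and Rgs16, which shorten chemokine signals, fell by 4.58, 2.29, 2.10 and 1.86. Cxcr4 (-0.37) was not called, and Lpar5 and Lpar6, receptors for lysophosphatidic acid, rose by 1.39 and 0.80. The groups did not overlap for 9 of the 29, S1pr2 among them, with Myc the lower (6.38% of all genes).

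Most MAP kinase feedback genes fell. Of 18 phosphatases and Sprouty-related genes 10 fell and 1 rose (3 and 0 against s_E205). Dusp6, which removes phosphate from ERK, fell from 45.7 to 140.2 CPM (median 76.3) to 7.05 to 18.9 CPM (median 11.4, log2 fold change -2.65 ± 0.24; -2.32 and 0.00095 against s_E205), Dusp10 by 2.18 and Dusp4 by 2.32. No overlap was seen for 5 of the 18, Dusp6 among them, with Myc the lower (6.38% of all genes). Spry2, a feedback inhibitor of receptor tyrosine kinases, rose by 1.94 ± 0.38 (adjusted p = 0.16 against s_E205) while Spry1 fell by 1.70 ± 0.34.

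Most TNF family genes fell, and in the cytokine, Notch and TGF-beta lists more genes fell than rose. The shares that fell were 65%, 40.7%, 46.7% and 33.3% in that order, against 21.9% of all genes. The shares that rose were 5%, 14.8%, 6.67% and 5.56%, against 26.6% of all genes. Of 20 genes of the TNF family 13 fell and 1 rose (6 and 0 against s_E205): Fas, a death receptor, fell by 2.73 ± 0.29, Tnfrsf13c, the receptor for BAFF, by 1.66 ± 0.18 and the adaptor Traf1 by 1.58 ± 0.15. Of 27 cytokine receptor, JAK, STAT and SOCS genes 11 fell and 4 rose (3 and 1 against s_E205). Il21r and Il4ra, receptors for cytokines of follicular helper T cells, fell by 1.87 ± 0.19 and 1.76 ± 0.19. Ifnar2, a chain of the type I interferon receptor, rose by 0.99 ± 0.13 and Il7r by 1.50 ± 0.51, the latter with a wide spread among Myc samples (6.50 to 279 CPM) that overlapped the vector samples. In the Notch list Dtx1 fell by 1.90 ± 0.18 and Hes1 by 1.34 ± 0.26, and Nrarp, a feedback inhibitor, rose by 0.89 ± 0.23 (1 rose and 7 fell of 15; 1 and 2 against s_E205). In the TGF-beta list 6 of 18 fell and 1 rose, with Tgfbr2 the 1 member called against s_E205 (-1.28, adjusted p = 0.04).

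Most genes of actin regulation fell, while the beta-actin gene was not called. Of 29 genes of actin and its small GTPases 18 fell and 2 rose (5 and 0 against s_E205, 20 and 2 length-corrected). Swap70, an exchange factor of activated B cells, fell from 426 to 729 CPM (median 660.5) to 58.8 to 147 CPM (median 129, log2 fold change -2.43 ± 0.20; -1.96 and 0.00094 against s_E205), Myo1e by 2.08 ± 0.20 and Rhoh by 1.32 ± 0.14. The groups did not overlap for 13 of the 29, with Myc the lower (6.38% of all genes). Actb had -0.07 ± 0.20 and Cfl1 -0.09 ± 0.19. Of 25 adhesion genes 5 rose and 9 fell (20% and 36%, against 26.6% and 21.9% of all genes; 0 and 2 against s_E205): Alcam fell by 1.58 ± 0.27 and Itgb2 by 0.91 ± 0.18, while Cd47, a signal against engulfment, rose from 93.3 to 126 CPM (median 116) to 149 to 282 CPM (median 229, log2 fold change 0.95 ± 0.14, adjusted p = 0.092 against s_E205).

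About as many B cell transcription factors fell as were not called. Of 33 factors 17 fell and 2 rose (4 and 2 against s_E205, 15 and 3 length-corrected). Bach2, which keeps B cells from becoming plasma cells, fell from 159.6 to 546 CPM (median 364) to 22.4 to 127 CPM (median 54.6, log2 fold change -2.52 ± 0.31; -1.72 and 0.026 against s_E205). Ebf1 and Pax5, which set B cell identity, fell by 1.60 ± 0.21 and 1.80 ± 0.25 (-1.56 and -1.19 against s_E205, adjusted p = 0.016 and 0.073), and Pou2af1, a coactivator of octamer factors, by 1.62 ± 0.23. For 11 of the 33, Bach2 among them, the groups did not overlap and Myc was the lower (6.38% of all genes). Sox4 and Myb, factors of early progenitors, rose by 1.56 ± 0.27 and 1.38 ± 0.24, and both were called against s_E205 (2.78 and 1.71). Prdm1, the plasma cell factor, had -0.58 ± 0.37 and Spi1 0.05 ± 0.25.

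Most genes of quiescence and about as many clock genes as not fell. Of 21 genes that restrain growth 14 fell and 1 rose (14 and 3 length-corrected), and 2 fell against s_E205, namely Btg1, which slows proliferation (-1.68 ± 0.21; -1.61 there), and Klf4 (-3.40 ± 0.55; -2.85 there). Klf4 ranged widely among vector samples, from 13.1 to 244 CPM (median 105). Cdkn1b, the cycle inhibitor p27, fell by 0.69 ± 0.25. Of 17 clock genes 9 fell and 1 rose (2 and 1 against s_E205). Ciart, a repressor of the clock, fell from 20.1 to 47.7 CPM (median 37.9) to 0.989 to 4.44 CPM (median 3.33, log2 fold change -3.57 ± 0.39), and Bhlhe40 by 2.13 ± 0.35. Nr1d1, a repressor that belongs to the nuclear receptors, was the member that rose (1.79 ± 0.22; 1.97 and 0.0092 against s_E205). Ciart did not overlap between groups.

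Many histone methylation genes fell against all vector samples, and none was called against s_E205. Of 29 histone lysine methyltransferases and demethylases 15 fell and 2 rose (median -0.64; 12 and 4 length-corrected, median -0.26), while against s_E205 0 rose and 0 fell (median -0.07; 1 rose and 0 fell at an unadjusted p under 0.05). Also, 12 of 29 were lower in earlier-run than in later-run vector samples, and the median longest transcript of the list is 6487 bases. Kmt2a, a methyltransferase of histone H3, had 257 to 1095 CPM (median 641) in vector and 31.2 to 396 CPM (median 299) in Myc lymphomas (-1.30 ± 0.35) and 257 and 579 CPM in the s_E205 samples (-0.57, adjusted p = 0.61). Its groups overlapped. Of 22 SWI/SNF genes 8 fell and 1 rose (7 and 5 length-corrected), with 0 of 22 called against s_E205 (1 in each direction at an unadjusted p under 0.05). Of 26 acetyltransferases and deacetylases 16 fell and 2 rose, and against s_E205 Hdac9 was the member called lower (-2.51, adjusted p = 0.0061) and Kat2a the member called higher (0.91, 0.02). Ep300 and Crebbp, paired acetyltransferases, fell by 0.87 and 1.35 but had -0.26 and -0.31 there.

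Some chromatin genes fell against all vector samples and against s_E205. In the Polycomb list 8 of 22 fell and 0 rose (2 and 0 against s_E205, 8 and 2 length-corrected): Phf19, which brings the complex to methylated histone, fell from 39.2 to 80.7 CPM (median 54.1) to 9.17 to 20.8 CPM (median 11.1, log2 fold change -2.23 ± 0.19; -1.94 and 0.00076 against s_E205), and Cbx8 by 1.33 ± 0.16 (-1.11 and 0.017). Phf19 did not overlap between groups. The core subunits Ezh2 (0.20), Suz12 (-0.10) and Eed (-0.16) were not called. Of 24 histone variants, chaperones and HMG proteins 8 rose and 4 fell (33.3% and 16.7%, against 26.6% and 21.9% of all genes), with 2 and 2 against s_E205. The linker histone H1fx fell by 3.56 ± 0.44 (-3.45 against s_E205) and Hmga1 rose by 1.37 ± 0.21 (1.57).

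Against all vector samples, base excision and mismatch repair genes were called in shares near those of all genes. Of 27 such genes 7 rose and 5 fell (25.9% and 18.5%, against 26.6% and 21.9%; 2 and 2 against s_E205, 8 and 7 length-corrected). The glycosylases Neil1 and Mbd4 fell by 2.71 ± 0.23 and 2.17 ± 0.22, both also against s_E205 (-2.79 and -1.94). Apex1, the endonuclease of base excision, and Exo1, a nuclease of mismatch repair, rose by 1.23 ± 0.17 and 1.14 ± 0.21 (1.27 and 1.43 against s_E205). Ung, which removes uracil from DNA, rose by 0.67 ± 0.16 (adjusted p = 0.06 against s_E205). Among 13 telomere genes 6 fell and 1 rose (4 and 1 length-corrected), with 0 called against s_E205 (1 in each direction at an unadjusted p under 0.05), and Tert, the catalytic subunit of telomerase and a known Myc target, had -0.63 ± 0.29. Of 22 cohesin, condensin and topoisomerase genes 2 rose and 4 fell (9.09% and 18.2%, against 26.6% and 21.9% of all genes). In the length-corrected fit 5 rose and 2 fell, and 0 were called against s_E205 (2 rose at an unadjusted p under 0.05). Of 28 autophagy genes 10 fell and 2 rose (2 and 1 against s_E205, 10 and 5 length-corrected), the receptor Optn by 1.88 ± 0.21 and Tfeb, the regulator of lysosome genes, by 1.39 ± 0.18.

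**Figure D4:**
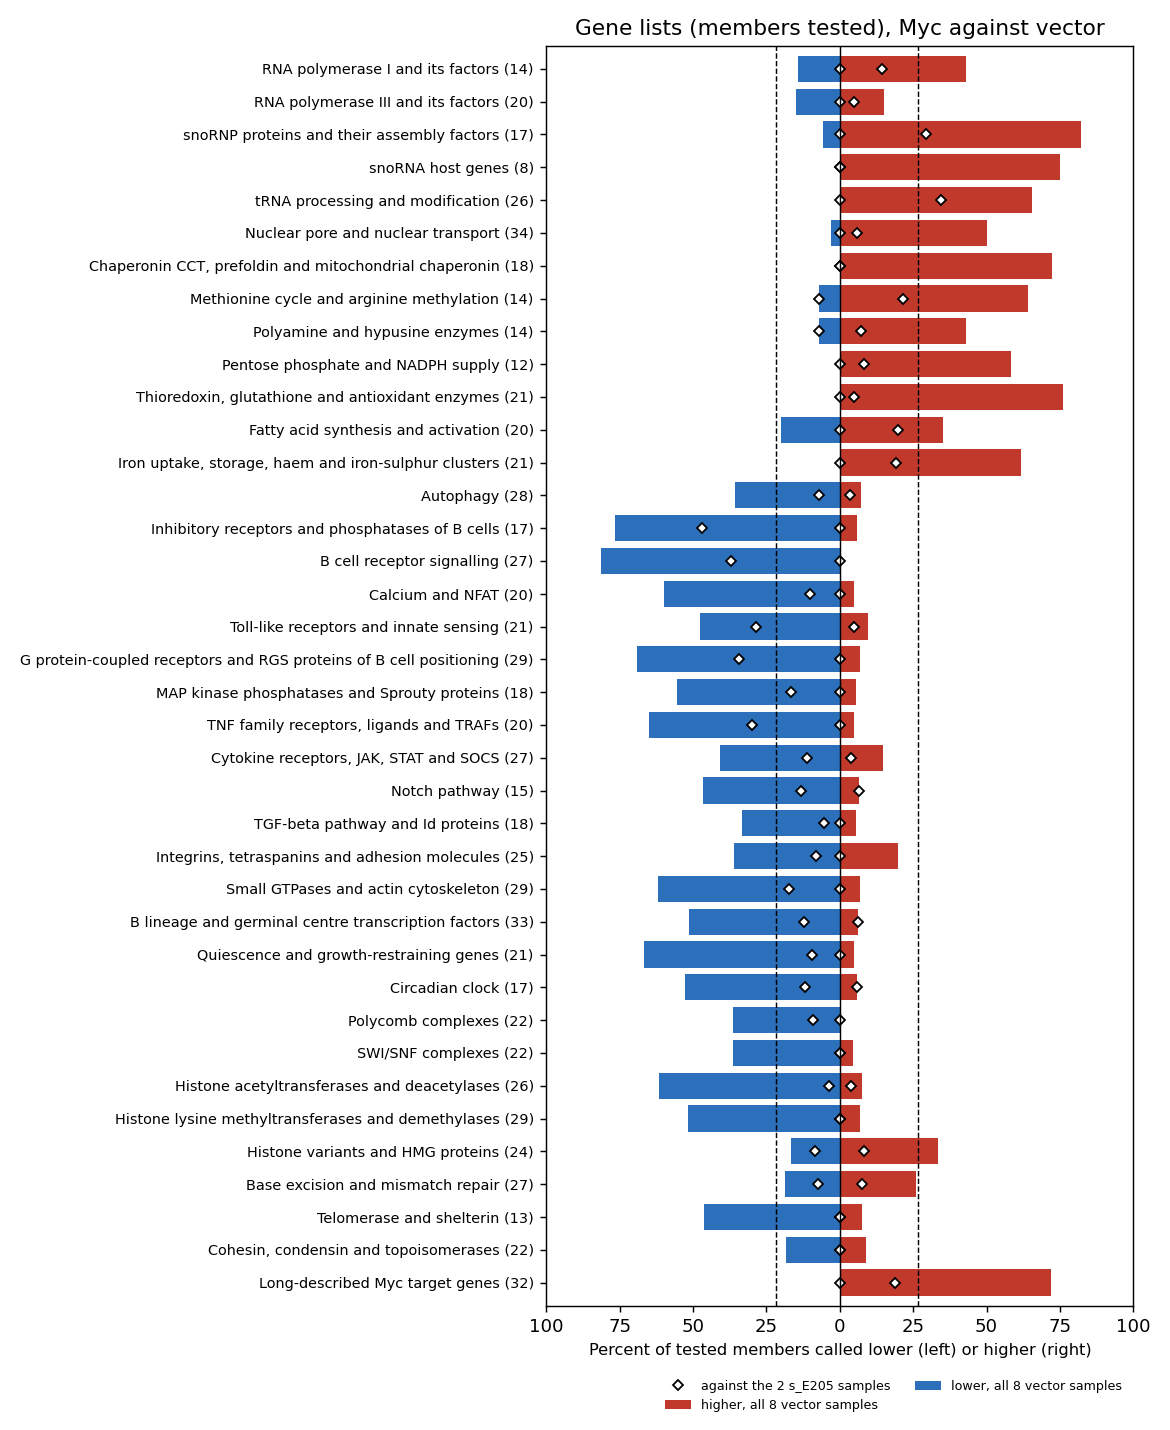
Percent of tested members of each gene list called higher (red, to the right) and lower (blue, to the left) in Myc against all 8 vector lymphomas (bars) and against the 2 s_E205 samples alone (open diamonds); dashed lines mark the 26.6% of all genes called higher and the 21.9% called lower. Most lists of RNA processing and metabolism reach to the right and the signalling lists to the left, while autophagy reaches to the left and RNA polymerase III stays within both dashed lines, and the diamonds lie close to 0 for the antioxidant, chaperonin and histone methylation lists.

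The germinal centre markers fell in every comparison. All 9 tested members fell (median -2.87), and all 9 fell against s_E205 (median -3.27), with the run term and in the length-corrected fit. Their summed level was 465 to 1272 CPM in vector lymphomas, 68.9 to 261 CPM in Myc lymphomas and 162 to 195 CPM in normal B cells. Gcsam, a signalling protein of germinal centre B cells, fell by 3.70 ± 0.49 and Basp1 by 2.71 ± 0.31. The sums did not overlap, and the normal cells lay below Myc replicate 4 and above the other 7 Myc samples. Mef2b had 0 counts in all 16 samples and was not tested.

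Pan-B-cell markers were lower but present in all Myc samples. Of 14, 12 fell and 0 rose (7 fell against s_E205). Their summed level was 6669 to 11420 CPM in vector lymphomas and 1389 to 7523 CPM in Myc lymphomas, with Myc replicate 5 at 7523 and the next at 3954 CPM, against 7147 to 8531 CPM in normal B cells. Ms4a1, the CD20 gene, fell from 416 to 973 CPM (median 608) to 67 to 268 CPM (median 156). Ms4a1 did not overlap between groups, while the summed level of the list did through Myc replicate 5. Vpreb3 had 1.13 ± 0.53 and Cd79b -0.56 ± 0.38, and neither was called. Immunoglobulin genes held 3.89 to 10.5% of gene counts in vector lymphomas and 0.93 to 5.45% in Myc lymphomas. Plasma cell markers were 4934 to 8588 CPM against 987 to 4614 CPM in sum, led by Jchain (4221 and 1099 CPM as medians), and of 10 members 5 fell and 1 rose (1 and 0 against s_E205). Among 9 tested pro-B and pre-B markers 4 rose and 1 fell (1 and 0 against s_E205), with Rag1, which cuts antigen receptor genes, at 1.72 to 7.10 CPM (median 2.57) against 4.07 to 46.8 CPM (median 9.82, log2 fold change 1.96 ± 0.49, adjusted p = 0.063 against s_E205), with overlapping groups.

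Some marker lists of other blood cells differed too, and some of them differed by run. The 10 NK and cytotoxic markers summed to 56.5 to 108 CPM in vector and 207 to 721 CPM in Myc lymphomas, without overlap, and normal samples held 198 to 311 CPM. Of the 10, 9 rose, 4 of them also against s_E205. Klrb1c, the NK1.1 antigen, rose by 3.54 ± 0.31, and Prf1, perforin, had 0.01 ± 0.22. The 12 neutrophil markers summed to 69.5 to 1014 CPM in vector replicates 1 to 6, 1852 and 6610 CPM in the s_E205 samples and 1829 to 18130 CPM in Myc lymphomas. Of the 12, 8 rose (6 length-corrected), 0 against s_E205 (also 0 at an unadjusted p under 0.05), and all 12 were higher in earlier-run than in later-run vector samples. The 9 plasmacytoid dendritic cell markers overlapped in sum (994 to 1126 CPM against 440.1 to 2734 CPM). Of these 9, 5 rose and 2 fell (3 and 0 against s_E205): Pacsin1 and Irf8 fell by 0.88 and 0.68, while Siglech and Ccr9 rose by 2.87 ± 0.45 and 2.57 ± 0.34 (4.41 and 3.47 against s_E205). Of 12 T cell markers 3 rose and 2 fell (25% and 16.7%, against 26.6% and 21.9% of all genes), with 1 and 0 against s_E205. Cd8b1 rose by 2.20 ± 0.31 (2.94 against s_E205), while Cd8a (0.37) and Cd3e (-0.44) were not called.

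The summed levels of the macrophage and dendritic cell lists overlapped, and those of the stromal list, which includes the B cell gene Cr2, did not. Macrophage and monocyte markers summed to 652 to 2482 CPM in vector and 793 to 3023 CPM in Myc lymphomas. Of the 12, 2 were higher and 2 lower (16.7% each, against 26.6% and 21.9% of all genes), with 1 and 1 against s_E205 and 2 and 5 length-corrected. Ly6c2, an antigen of monocytes, rose from 39.6 to 162 CPM (median 51.7) to 292 to 1488 CPM (median 574, log2 fold change 3.14 ± 0.36; 2.34 and 0.018 against s_E205). Ly6c2 did not overlap between groups. Conventional dendritic cell markers fell in 4 of 8 (2 of 8 without vector replicate 7 or 8) and rose in 1, with 2 lower against s_E205 (91 to 230 CPM against 89.8 to 259 CPM in sum). Mast cell and basophil markers rose in 5 of 8 (3 of 8 without Myc replicate 4), 0 against s_E205 (1 at an unadjusted p under 0.05), and megakaryocyte and platelet markers in 1 of 8 (Pf4, 1.56 ± 0.41). Stromal and endothelial markers summed to 212 to 420.3 CPM in vector, 86.7 to 180.2 CPM in Myc and 694 to 898 CPM in normal samples. Of 10 members 2 rose and 2 fell (20% each, against 26.6% and 21.9% of all genes), with 0 and 1 against s_E205. Their median log2 fold change was 0.26, while the sum was lower in Myc lymphomas. Cr2, which B cells also express, was among the 2 that fell and is part of the sum, so the sum does not measure stromal cells alone. Ccl19 had too few counts to be tested. The part of these cells in the changes of other genes was not tested.

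**Figure D5:**
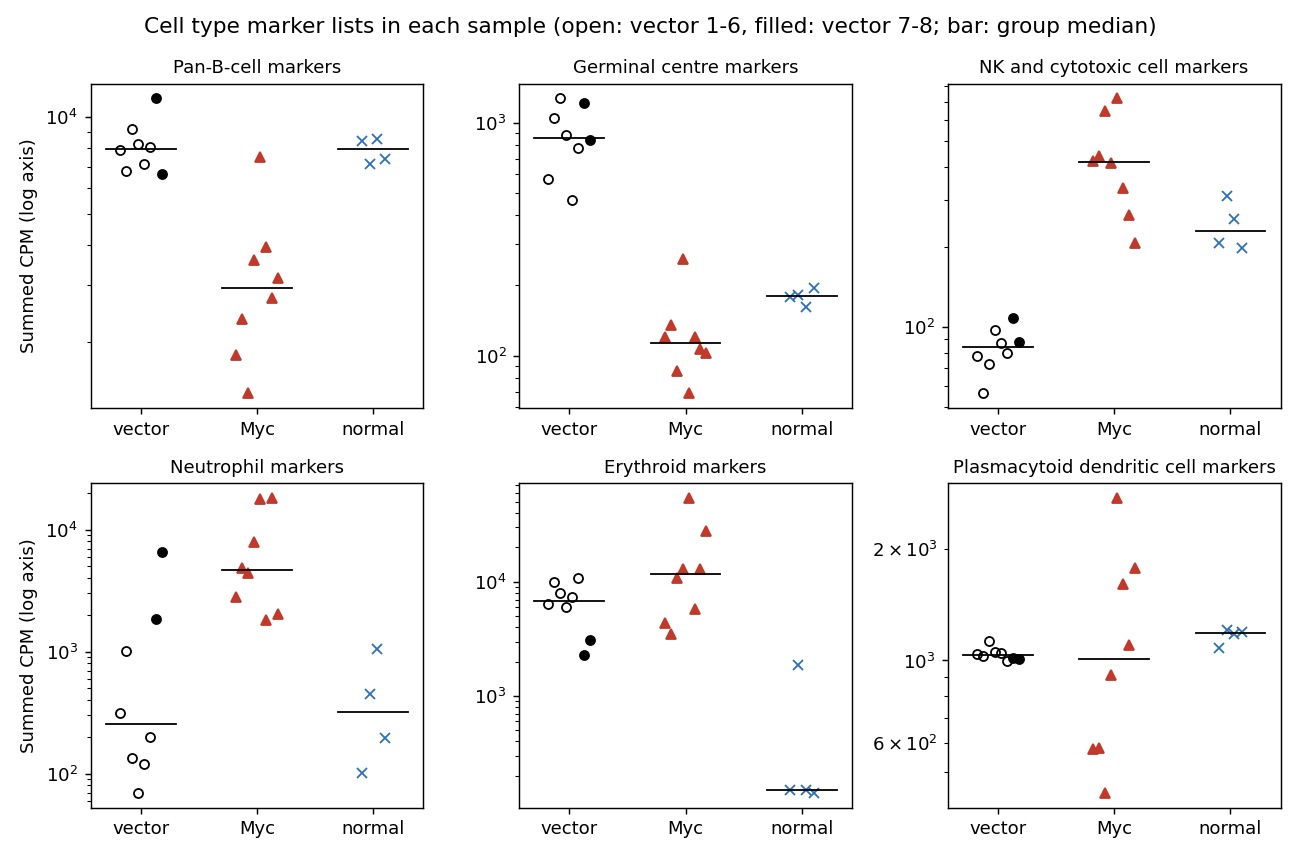
Summed CPM (log axis) of 6 marker lists in each sample; open circles are vector replicates 1 to 6, filled circles vector replicates 7 and 8, triangles Myc lymphomas and crosses normal B cells. Germinal centre and NK lists separate all triangles from all circles, while for neutrophil markers the filled circles lie among the triangles.

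By amount of RNA, among the genes ranked, the 8 largest rises were mitochondrial, and 4 of the 8 largest falls were in antigen presentation. Of these 16 genes, 1 was called against s_E205. Immunoglobulin genes, whose share of counts is given above, were left out of this ranking, as were T cell receptor segments and predicted genes. Within the ranking, the 8 called genes of the largest rise in CPM are all encoded by the mitochondrial genome. Their levels in the s_E205 samples lay near those of the Myc lymphomas. Among them mt-Co1, a subunit of cytochrome oxidase, had a median of 2562 CPM over the 8 vector lymphomas, 19750 and 19820 CPM in the s_E205 samples and 12710 to 72140 CPM (median 32270) in Myc lymphomas (2.39 ± 0.63; 0.81 and adjusted p = 0.46 against s_E205). Against s_E205 and with the run term 0 of the 8 were called by edgeR (against s_E205 also 0 at an unadjusted p under 0.05), and with only s_AO57 as the Myc group 4 were. Mitochondrially encoded genes made up 0.39 to 1.05% of gene counts in vector replicates 1 to 6, 6.39 and 8.63% in the s_E205 samples and 7.12 to 21.6% in Myc lymphomas. Among the 8 largest falls are Cd74, the invariant chain of MHC class II, with medians of 10300 and 4288 CPM, and H2-Ab1, H2-Aa and H2-Eb1, chains of class II itself, which fell 2.93-, 2.11- and 2.83-fold. In Myc replicate 5 these class II genes were higher than in the other Myc samples. H2-Ab1 was the 1 gene of these 8 called against s_E205 (-1.62, adjusted p = 0.035), while 7 of the 8 fell at an unadjusted p under 0.05. Jun, an immediate-early factor, fell by 3.10 ± 0.58 (394 to 3210 CPM against 7.49 to 396 CPM, just overlapping), and the nuclear RNA Malat1 by 1.82 ± 0.29. Myh9, a long transcript for non-muscle myosin, fell by 1.52 ± 0.36 but had -0.45 against s_E205 (adjusted p = 0.68).

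Fold changes did not differ much by chromosome. The median log2 fold change of the genes tested ran from -0.05 on chromosome 17 to 0.19 on chromosome X, and was 0.02 on chromosome 15, where Myc lies.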

How the data were processed

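Poly-adenylated RNA of B220-enriched cells was read on the Ion Proton System (per the labels' protocols). The authors deposited whole-number counts of reads per Ensembl gene. HTSeq, BWA 0.7.5a and Picard 1.119 are listed in the submitters' processing notes, with the builds mm9 and NCBIM37. Use of the strand in counting is not stated there, so overlapping genes may share reads. The 5 unassigned-read entries were left out of library sizes and tests.

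From the counts, genes were filtered with filterByExpr, normalised by TMM and compared in edgeR 4.0.16 (quasi-likelihood F test, 1 fit of 20 samples in 3 groups, Benjamini-Hochberg adjusted p under 0.05; R 4.3.3). Standard errors are the log2 fold change over the root of F. The same fit was made on the 13 earlier-run samples, which hold 2 vector samples, and with later runs as a term. DESeq2 1.42.0, other scalings, no filter, single title prefixes and leaving out each sample were alternatives. The fit with the length trend removed (lowess over the longest GENCODE vM21 transcript) was added after seeing the data. The test was checked on simulated counts.

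Symbols came from the RefSeq table where an Ensembl ID matched, for 32897 of 37620 genes. Named by rule were Myc, in each direction 12 genes of largest fold and 8 of smallest p (called also against s_E205, at least 5 CPM in the higher group, no overlap), the 8 of largest CPM difference, and up to 4 members of smallest p of each described list, with the cell type markers. The 3 promoters shown are those of the named genes of smallest p that hold the motif, with genes on some chromosomes left out of the choice. The rankings by fold, p and CPM difference left out immunoglobulin and T cell receptor segments and predicted genes (Gm or Rik names). They also left out Xist, genes of the Y chromosome and genes without a symbol of their own. Other list members were named after their values were seen. A few list members chosen this way are not reported here. The comparison and the gene lists were chosen with earlier results of these data known. Each group has 8 samples, and 28.7 to 56.3 M (mega) counts per sample limit precision less than the spread between samples.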

Additional observations from a re-analysis of the deposited data

Results flagged for a closer look

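In 150 groups of 8 samples, 35 held 1 sample far from the other 7. The limit used is one that chance passes in about 1 in 20 independent groups of normally distributed values. These groups share their samples and are not independent. CPM and their sums were used without a log transform, so that rate need not hold here. Several of these samples recur, and their part in the differences between groups was not tested.

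Myc replicate 5 stood apart most often. It held 22.05% of its gene counts in cytosolic ribosomal protein genes, a short minus long transcript difference of 4.535 on the log2 scale, and summed levels of 7523 CPM for pan-B-cell markers and 3023 CPM for macrophage and monocyte markers. Its MHC class II genes were high, with Cd74 at 10520 CPM, H2-Aa at 4759 CPM, H2-Eb1 at 2912 CPM and H2-Ab1 at 2800 CPM. Klk1b27 (124.2 CPM), Arhgdig (38.98 CPM), Gsto1 (173.3 CPM) and Thsd7a (0.4732 CPM) were also high in it.

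Vector replicate 2 was the highest vector sample for genes that are near 0 in the others, with Esrp1 at 0.1776 CPM, Lingo3 at 0.4971 CPM, Stfa1 at 2.557 CPM, Car12 at 1.278 CPM, Arhgdig at 0.8878 CPM and Ear1 at 1.491 CPM. In the same sample Cobl reached 47.58 CPM and Scn8a 27.73 CPM. Vector replicate 8, an s_E205 sample, was high in the marker sums of neutrophils (6610 CPM), macrophages and monocytes (2482 CPM), conventional dendritic cells (230 CPM) and mast cells and basophils (63.44 CPM), and in Tfpi (2.456 CPM). Vector replicate 3 was high in the sums of plasma cell markers (8588 CPM) and plasmacytoid dendritic cell markers (1126 CPM) and in Jchain (7195 CPM). Vector replicate 5 was high in Cd163l1 (0.3805 CPM).

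Of the other Myc samples, replicate 6 held 21.63% of its gene counts in mitochondrially encoded genes and 25050 CPM of mt-Cytb, replicate 4 held 261 CPM in germinal centre markers, replicate 3 had Cd163l1 at 34.77 CPM and Epha3 at 68.91 CPM, and replicate 2 had Hspa1b at 7.25 CPM.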

How the results depend on the processing

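The counts moved with the controls used. With later runs as a term, 1640 genes were higher and 1742 lower (1133 higher by at least 2-fold). In the 13 earlier-run samples, 549 were higher and 814 lower (516 and 744 by at least 2-fold), and without vector replicate 7 or 8 the former counts were 28 to 62 and 251 to 270. With s_AO57 as the only Myc samples, 1838 genes were higher by at least 2-fold. The E-box was in 9.64% of promoters of genes higher by at least 2-fold. The cause of these shifts was not tested, including the part of fewer samples in the smaller fits.

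Leaving out 1 sample gave 4129 to 4939 genes higher, 3586 to 4126 lower, 2594 to 3443 and 1711 to 2098 by at least 2-fold, and 2.87 to 3.25 for the log2 fold change of Myc. Genes without overlap then numbered 2086 to 2863, against 2051 with all samples, a count that cannot fall when a sample is left out. DESeq2's size factors, library totals, no filter, DESeq2's Wald test, the 16 lymphomas alone, the later-run vector samples alone and the length-corrected fit gave 4118 to 5392 genes higher and 3448 to 4369 lower. Across the genes named, no called gene changed direction under these alternatives. Of the called genes named, 55 missed the threshold in the earlier-run samples, 19 with the run term and 2 in the length-corrected fit. These counts are a description only. By the rule for naming them, 20 genes that rose and 19 that fell could not miss the threshold in the earlier-run samples. Other genes were named for a small p or after their values were seen.

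No paired analysis was possible because the labels' replicate numbers repeat within a group and do not tie samples of different groups. Run and title prefix of the vector samples cannot be told apart. Levels near 0 CPM, as of Esrp1 and Lingo3 in vector lymphomas, rest on a few counts.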
